A study of Rattus norvegicus with 4 samples.

Results

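Genes that mark tissue macrophages were followed on 4 one-colour Agilent arrays of cultured rat peritubular myoid cells, as a measure of the testicular macrophages in those cultures. Of 10 genes sought by name (Tyrobp, Adgre1, Cd68, Cd163, Mrc1, Ptprc, Fcer1g, Csf1r, Csf1 and Cd14, with Emr1 as the older name of Adgre1), 8 had a probe. They had 15 probes among the 41012 probes of the array, which carried 35667 gene and transcript names. The search for probes went by name and used no measured value, but the genes themselves were chosen with earlier results of these data known.

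Peritubular myoid cells are the smooth-muscle-like cells that sheathe the seminiferous tubules. They came from the testes of 40-day-old male rats (Rattus norvegicus) and spent 4 days in DMEM/Ham's F-12 with defined growth factors. The groups were testosterone, given in pulses at 1e-07 M (2 arrays), and control (2 arrays), whose own treatment the labels do not give. Neither the strain nor any purification by markers is stated in the sources used here. The titles number the arrays 1 and 2 in each group without saying what the number stands for, so arrays numbered 2 and arrays numbered 1 each hold 1 testosterone and 1 control array. The series asks which genes testosterone induces. Whether replicates came from separate cultures or animals is not said, and the p-values below speak only of how far these 4 arrays vary, and that variation may be technical.

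Macrophages of the testis lie in the interstitial space beside the Leydig cells and, in the mouse, also on the surface of the tubules. Colony-stimulating factor 1, which stromal cells can secrete, acts on macrophages through the receptor tyrosine kinase encoded by Csf1r and keeps them alive. Their identity genes depend on the transcription factor PU.1, encoded by Spi1, which binds a purine-rich box. None of these genes is wholly private to macrophages, and Csf1 and Cd14 are also transcribed by stromal cells.

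Promoter windows of 3 of the genes are shown because their probes took different directions between the numbered arrays, Adgre1 upward and Cd68 and Csf1r downward. Each runs 5' to 3' on the gene's strand, from 250 bases before to 50 after the start that RefSeq gives on GRCr8. Capitals mark the letters GAGGAA, the core of a PU.1 box, or TTCCTC, its reverse complement.
Adgre1 (chr9:2329190-2329489, plus strand): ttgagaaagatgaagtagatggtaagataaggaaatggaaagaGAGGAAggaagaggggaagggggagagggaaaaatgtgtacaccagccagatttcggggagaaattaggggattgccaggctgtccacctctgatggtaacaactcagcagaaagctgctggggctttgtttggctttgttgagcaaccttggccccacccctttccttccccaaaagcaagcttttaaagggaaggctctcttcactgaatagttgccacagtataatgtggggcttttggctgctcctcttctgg
Cd68 (chr10:54882392-54882691, minus strand): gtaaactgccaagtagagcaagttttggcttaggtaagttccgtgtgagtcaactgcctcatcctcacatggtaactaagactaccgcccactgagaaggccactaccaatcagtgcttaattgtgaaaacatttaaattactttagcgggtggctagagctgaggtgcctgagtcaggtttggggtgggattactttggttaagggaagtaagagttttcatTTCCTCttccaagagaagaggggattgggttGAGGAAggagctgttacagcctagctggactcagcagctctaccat
Csf1r (chr18:56834129-56834428, plus strand): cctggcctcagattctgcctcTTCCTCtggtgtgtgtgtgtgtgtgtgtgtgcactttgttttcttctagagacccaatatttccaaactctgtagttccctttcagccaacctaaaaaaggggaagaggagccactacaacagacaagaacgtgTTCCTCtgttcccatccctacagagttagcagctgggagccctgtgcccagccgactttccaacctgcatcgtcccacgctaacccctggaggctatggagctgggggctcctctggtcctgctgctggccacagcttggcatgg
The window of Adgre1 held 1 match and those of Cd68 and Csf1r 2 each. Windows were at hand for 7 of the 10 genes, and 6 of them held at least 1 match, all but that of Cd163. Over all 33469 rat windows of this length, 27.6% held a match on either strand. A match describes the letters and not the binding of a factor.

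The cultures carried a measurable set of macrophage transcripts on every array. All 8 genes had a probe well above background on all 4 arrays, 13 of the 15 probes were so, and none was saturated. With testosterone, no gene of the set passed the test in either direction. Between the numbered arrays Adgre1, which encodes the macrophage surface receptor F4/80, rose about 2.00-fold on number 2. It passed, as did 5.86% of all genes tested, and kept its call under 7 of 13 alternative settings. Cd68, Tyrobp and Csf1r had differences between -0.53 and -0.50 (log2) that did not pass. All levels below, other than sums, are log2 processed signals minus the array's 75th percentile. A level of 0 is that percentile, and levels of different probes cannot be set against each other. In RNA from whole cultures, fewer macrophages and less RNA per macrophage cannot be told apart.

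Levels are given first for Csf1, which encodes the ligand. Its brighter probe (rn4 chr2:203292994-203293053) read 5.30 on testosterone replicate 2 and 4.93 on testosterone replicate 1, against 5.40 on control replicate 2 and 5.11 on control replicate 1. Both arrays numbered 2 were higher than both numbered 1, and testosterone and control arrays overlapped. A second Csf1 probe read 5.11 and 4.59 on testosterone replicates 2 and 1, against 5.06 and 4.71 on control replicates 2 and 1, in the same order by number.

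Csf1r encodes the receptor for that ligand. The 1 Csf1r probe above background (rn4 chr18:57105231-57105932) read -1.17 and -0.81 on testosterone replicates 2 and 1, against -1.28 and -0.65 on control replicates 2 and 1. Here the arrays numbered 2 were the lower ones, opposite to the ligand. Another 2 probes with the name Csf1r were not well above background on any array and give only a bound.

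Tyrobp encodes DAP12, an adaptor that carries the activating ITAM motif for receptors such as TREM2. Its brighter probe (rn4 chr1:85369110-85369169) read 4.97 and 5.39 on testosterone replicates 2 and 1, against 5.08 and 5.71 on control replicates 2 and 1. The dimmer probe (rn4 chr1:85369042-85369101) read -1.81 and -2.30 on testosterone replicates 2 and 1, against -2.19 and -2.38 on control replicates 2 and 1. The probes of this gene therefore went opposite ways by number, the brighter lower and the dimmer higher on the arrays numbered 2.

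Adgre1 had 1 probe (rn4 chrUn:64821266-64823251, on unplaced sequence). It read 2.20 on testosterone replicate 2 and 1.09 on testosterone replicate 1, against 2.05 on control replicate 2 and 1.16 on control replicate 1. Both arrays numbered 2 lay far above both numbered 1, and arrays of one number lay close together whatever their treatment.

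Cd68 encodes a glycoprotein of the lysosome membrane that macrophages hold in large amounts. Its single probe (rn4 chr10:56481762-56481821) read 5.92 and 6.38 on testosterone replicates 2 and 1, against 5.96 and 6.54 on control replicates 2 and 1. Again the arrays separated by number and not by treatment, this time with number 2 lower.

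By their brighter probes the scavenger and mannose receptors had the same order by number as Adgre1, at smaller distances. Cd163, the haemoglobin-haptoglobin receptor that the ED2 antibody marks on resident macrophages of the rat, read -1.99 and -2.26 on testosterone replicates 2 and 1, against -1.75 and -2.29 on control replicates 2 and 1 (rn4 chr4:160407221-160407922). Mrc1, the mannose receptor, read 1.07 and 0.93 on testosterone replicates 2 and 1, against 1.28 and 0.86 on control replicates 2 and 1 (rn4 chr17:88492403-88492462). By these probes the arrays numbered 2 were the higher ones for both genes, and control replicate 2 was the highest of the 4. Second probes read between -4.19 and -3.55 for Cd163 and between -3.48 and -3.20 for Mrc1, and on both the numbers overlapped. Within each treatment that of Cd163 was higher on number 2 and that of Mrc1 lower.

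Cd14 encodes the co-receptor that hands lipopolysaccharide to TLR4. It read 2.51 and 2.23 on testosterone replicates 2 and 1, against 2.40 and 2.36 on control replicates 2 and 1 (rn4 chr18:29374990-29375049). The 2 control arrays were nearly equal and lay between the testosterone arrays. A second Cd14 probe read between -1.55 and -1.24. Whether any of these probes lies in coding or untranslated sequence was not analysed here.

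Ptprc, which encodes the leukocyte common antigen CD45, and Fcer1g, the gamma chain shared by Fc receptors, had no probe under their names. Outside the search by name, 3 probes that the files describe as leukocyte common antigen were all well above background on the 4 arrays, with levels below the 75th percentile on every array, the lowest at -5.02. Their differences between number 2 and number 1 were -0.22, -0.13 and 0.12 (log2), and none passed limma's test.

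**Figure D1:**
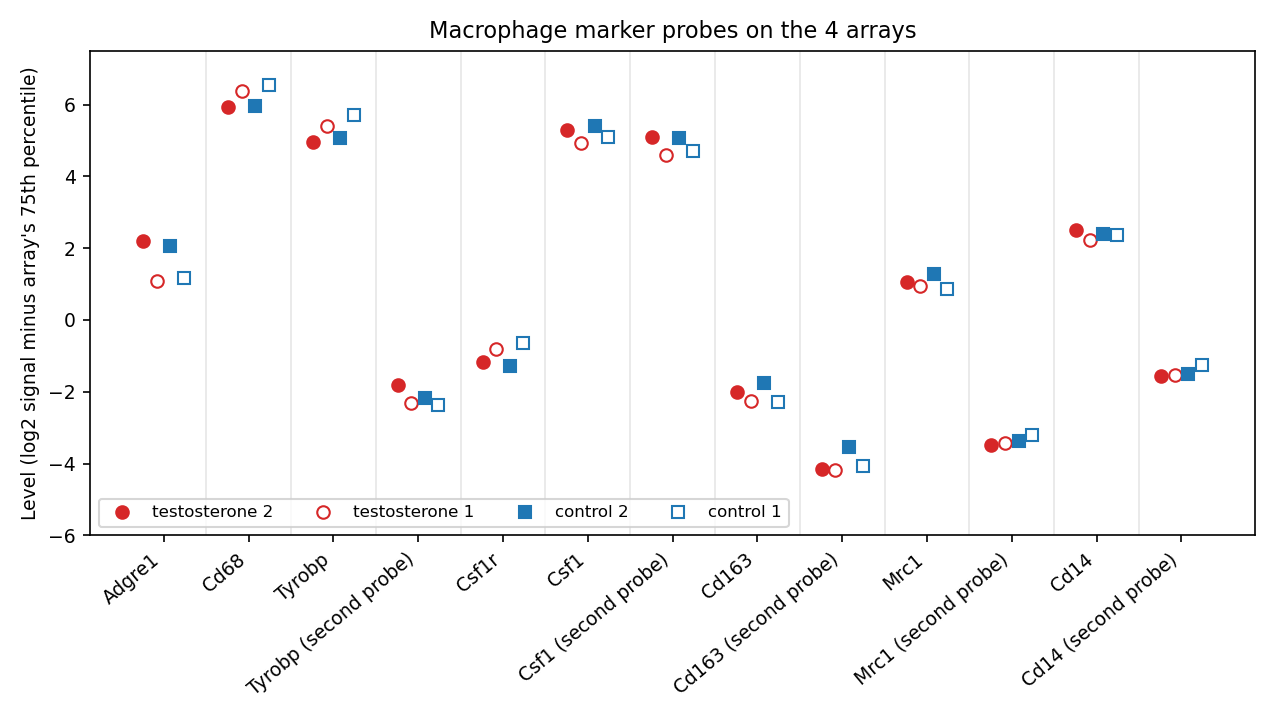
Levels of the 13 macrophage marker probes above background. Each point is 1 array, in log2 processed signal minus that array's 75th percentile, circles for testosterone and squares for control, filled for number 2 and open for number 1. Filled and open points of Adgre1 lie about 1 apart (log2), those of Cd68 and the brighter Tyrobp probe about 0.5 apart in the other direction, and heights of different probes cannot be set against each other.

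The first comparison asked whether the macrophage transcripts differed with testosterone. None of the 8 genes passed limma's test, and by its brightest probe none had testosterone arrays wholly above or below the control arrays. Of all 22046 genes and transcripts tested, 0% passed either way, 0.794% had an unadjusted p under 0.05 and 15.2% had groups that did not overlap (6.07% higher and 9.11% lower with testosterone). Differences were positive for 1 gene and negative for 7, with a median of -0.08 (log2), beside 47.9% positive, 52.1% negative and a median of -0.01 over all genes tested.

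Adgre1 averaged 1.64 ± 0.79 with testosterone and 1.60 ± 0.63 in control (SD, n = 2 each), a difference of 0.04 (log2, 95% interval -1.34 to 1.41). Cd68 averaged 6.15 ± 0.32 with testosterone and 6.25 ± 0.41 in control, a difference of -0.10 (-0.92 to 0.73). The Tyrobp difference of -0.21 (-1.05 to 0.63) was the one farthest from 0 among the 8. Each group held 1 array of each number, and for Adgre1 and Cd68 the 2 arrays of a group lay much farther apart than the group means.

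Csf1 differed by -0.14 (-0.77 to 0.50) between testosterone and control and Csf1r by -0.02 (-0.84 to 0.79). Cd163 differed by -0.11 (-0.84 to 0.62), Mrc1 by -0.07 (-0.69 to 0.55) and Cd14 by -0.01 (-0.55 to 0.53), all on the log2 scale. The adjusted p was 1 for each of the 8 genes in limma. Between arrays of the same number the testosterone minus control differences of the 8 genes ran from -0.25 to 0.15 for number 2 and from -0.32 to 0.07 for number 1. Of 5 second probes none passed, and 3, those of Cd14, Cd163 and Mrc1, read lower on both testosterone arrays than on both control arrays, where their brighter probes overlapped. Differences of the second probes ran from -0.36 for Cd163 to 0.22 for Tyrobp, whose 2 probes had opposite signs. Without control replicate 2, 34 genes of all those tested passed, none of them among the 8.

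The second comparison set the arrays numbered 2 against those numbered 1. By their brightest probes all 8 genes had arrays that did not overlap, 5 higher and 3 lower on number 2, where 65% of the 22797 genes and transcripts tested were so separated, 40.7% higher and 24.3% lower. Of 5 second probes those of Csf1 and Tyrobp were higher on both arrays numbered 2, and those of Cd14, Cd163 and Mrc1 overlapped. Adgre1 was the 1 gene of the 8 that passed limma's test, beside 5.86% of all genes tested, 4.59% higher and 1.26% lower. Those calls numbered 1047 higher and 288 lower, against 1028 and 1043 after normexp background correction and quantile normalization. An unadjusted p under 0.05 was reached by 5 of the 8 and by 30.7% of all. The median difference was 0.22 (log2) for the 8 genes and 0.10 for all genes tested, whose quartiles were -0.16 and 0.40. With the probes of a gene averaged, these medians were 0.04 and 0.09, and after normexp and quantile normalization 0.09 and -0.01. The linear sum of the 8 genes, of which Cd68 was the brightest, ran the other way from their median. It was 144 and 150 on number 2 for testosterone and control, against 165 and 190 on number 1. The brightest probes were thus separated by number as most of the array was, and without a common direction.

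Adgre1 averaged 2.12 ± 0.11 on number 2 and 1.12 ± 0.05 on number 1 (SD, n = 2 each). The difference was 1.00 (log2, 95% interval 0.67 to 1.33, adjusted p = 0.0319 in limma), higher on number 2 in both treatments, by 1.11 with testosterone and by 0.89 in control. The call was lost when any 1 array was left out: adjusted p in limma was 0.0814 and 0.176 without testosterone replicate 1 and 2, and 0.0776 and 0.0944 without control replicate 1 and 2, with differences from 0.92 to 1.07. It was also lost with treatment as a covariate (adjusted p = 0.0792) and with no detection filter (0.0974).

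Cd68 averaged 5.94 ± 0.02 on number 2 and 6.46 ± 0.11 on number 1, a difference of -0.52 (-0.85 to -0.19, adjusted p = 0.0787 in limma). Tyrobp differed by -0.53 (-0.95 to -0.11, adjusted p = 0.114) by its brighter probe and by 0.34 (-0.11 to 0.79, adjusted p = 0.243) by its dimmer one. Csf1r differed by -0.50 (-0.84 to -0.16, adjusted p = 0.0900). After normexp background correction and quantile normalization the differences of Cd68 and Tyrobp were -0.78 and -0.71 and passed (adjusted p = 0.0256 and 0.0349 in limma), with the median of all genes at -0.01.

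The other 4 genes had positive differences that did not pass limma's test. Cd163 differed by 0.41 (0.04 to 0.77, adjusted p = 0.138), Csf1 by 0.33 (-0.02 to 0.67, adjusted p = 0.174), Mrc1 by 0.28 (-0.08 to 0.63, adjusted p = 0.233) and Cd14 by 0.16 (-0.17 to 0.48, adjusted p = 0.422). The second probe of Csf1 gave 0.44 (0.13 to 0.75, adjusted p = 0.0933) and that of Cd163 0.28, while those of Mrc1 and Cd14 gave -0.12 and -0.13.

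**Figure D2:**
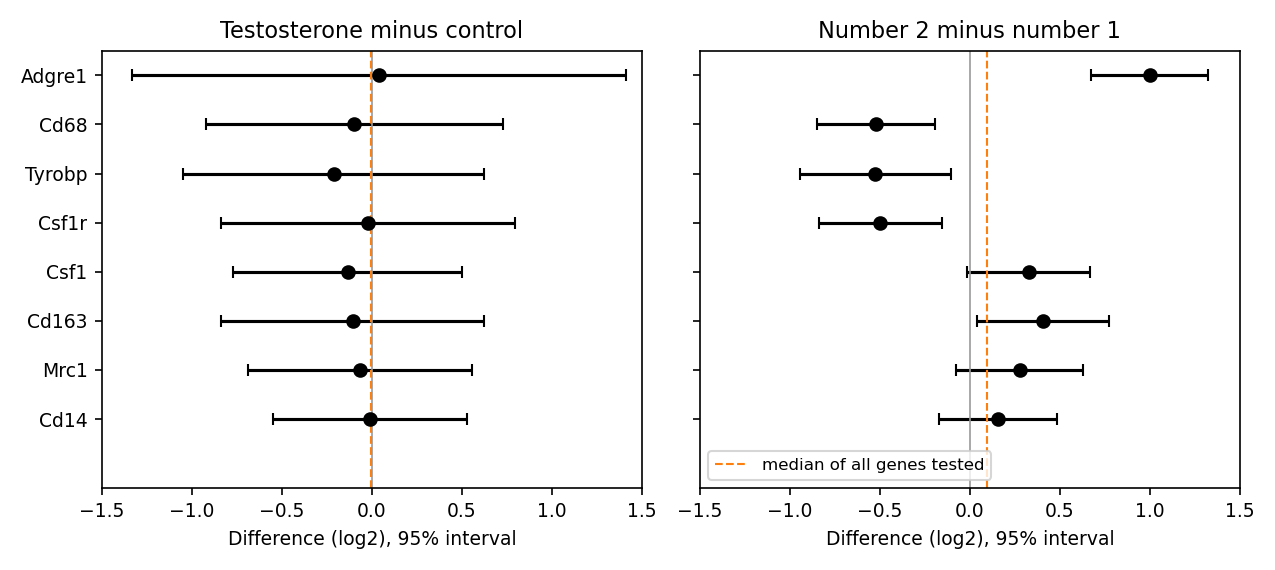
Differences of the 8 macrophage marker genes on the log2 scale, each by its brightest probe. Points are limma estimates with 95% intervals, testosterone minus control on the left and number 2 minus number 1 on the right, and dashed lines are the medians of all genes tested (-0.01 and 0.10). Every interval on the left includes 0, and on the right that of Adgre1 lies above 0 as does that of Cd163, while those of Cd68, Tyrobp and Csf1r lie below it.

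Position on the array was looked at for Tyrobp. On control replicate 1, 7.76% of the detected spots in columns 57 to 85 read more than 1 (log2) below the median of the other arrays, against 2.91% in the other columns. The brighter Tyrobp probe and the second Cd14 probe lie in column 64, inside that span, and both undetected Csf1r probes lie inside it too. Among 60 detected spots around the brighter Tyrobp probe the median shift was -0.06 and 1 spot was more than 1 below, and the probe itself read highest on that array. With those columns left out the dimmer probe stands for Tyrobp, and the difference is 0.34 for number 2 minus number 1 and 0.22 for testosterone minus control.

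Other genes of macrophages came from a list of 36, of which 27 could be tested. They gave 0 higher and 6 lower on number 2 in limma, beside 4.59% and 1.26% of all genes tested. With detection required on all 4 arrays, which changes the other genes tested, there were 2 higher and 6 lower. All 20798 genes so tested gave 1199 higher and 531 lower. After normexp and quantile normalization there were 2 higher and 7 lower, beside 1028 higher and 1043 lower of all 22797 tested. Without these changes the median of the 27 genes was -0.18 (log2), and 11 were positive and 16 negative. Arrays did not overlap for 7 upward and 15 downward, beside 40.7% and 24.3% of all genes tested. C1qa, a chain of the complement starter C1q that macrophages make, read 2.85 and 2.99 on number 2 for testosterone and control, against 3.93 and 3.97 on number 1. That is a difference of -1.03 (-1.35 to -0.71, adjusted p = 0.0287 in limma). C1qb and C1qc, named after their values were seen, fell alongside it by 1.15 and 1.04 (adjusted p = 0.0338 each).

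Lilrb4, an inhibitory receptor listed as Gp49b in the files, and Cybb, the catalytic subunit of the phagocyte NADPH oxidase, also fell on number 2. Their differences were -1.27 and -1.17 (adjusted p = 0.0224 and 0.0460 in limma). None of these 5 named genes passed when any 1 array was left out, with adjusted p from 0.0547 to 0.185, nor with treatment as a covariate or with no detection filter. Adgre1 and these 5 genes thus went opposite ways between the numbered arrays, although all are used as macrophage genes.

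Several general macrophage genes did not pass, although Aif1 and Clec10a did under some alternatives. Aif1, which encodes the actin-binding protein IBA1, differed by 0.62 (adjusted p = 0.0537 in limma, and called under 3 of 13 alternatives), Itgam and Itgb2, the chains of the integrin Mac-1, by -0.31 and -0.55, and Spi1, which encodes PU.1, by -0.18. Clec10a, a galactose-binding lectin, had the largest difference of the list, 3.27 (adjusted p = 0.0674, and called under 4 of 12 alternatives). It read 1.13 and 0.74 on number 2 for testosterone and control, against -1.36 and -3.32 on number 1, and its probe lies in column 74. Itgax, Marco, Siglec1, Timd4, Cd53 and Ncf4 had no probe, and Cx3cr1, Lyve1 and Vsig4 were too dim to test. In testosterone minus control this list had 10 positive and 17 negative differences, a median of -0.08 and no call.

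The pathway genes around CSF1, Fc receptors and ITAM signalling numbered 27, of which 20 could be tested. On number 2, 3 were higher and 1 lower in limma, beside 4.59% and 1.26% of all genes tested. Their median was 0.07 (log2). Csf2, which encodes the growth factor GM-CSF, read -2.99 and -3.20 on number 2 for testosterone and control, against -5.11 and -4.90 on number 1. It rose by 1.91 (1.51 to 2.30, adjusted p = 0.0160), a call lost with no detection filter and without testosterone replicate 2 or control replicate 2, where adjusted p reached 0.120. After normexp and quantile normalization its difference was 0.54 (adjusted p = 0.0235).

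Fcgr1a and Fcgr2b, an activating and an inhibitory Fc receptor for IgG, rose by 0.79 and 0.81 (adjusted p = 0.0444 and 0.0460 in limma). Fc receptor genes resemble each other closely, so their probes may share signal. Syk, the kinase that binds phosphorylated ITAMs, fell by 0.82 (adjusted p = 0.0407). None of these 3 passed when any 1 array was left out, with adjusted p from 0.101 to 0.203. The probes of Syk and Fcgr2b lie in columns 69 and 64. With columns 57 to 85 left out, 15 genes of the list could be tested, with 2 higher and 0 lower in limma. All 15969 genes then tested gave 1303 higher and 528 lower. Trem2, a receptor that signals through DAP12, differed by -0.54 (adjusted p = 0.129), next to -0.53 for the brighter Tyrobp probe. No probe was found for Il34, the other ligand of the CSF1 receptor. With testosterone 8 of the 20 were positive, 12 negative and none passed.

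CD14 and TLR4 signalling was represented by 11 of 13 genes, 7 positive and 4 negative on number 2, with a median of 0.16 (log2). Tlr2, the receptor for bacterial lipoproteins, was the 1 that passed, higher by 0.90 (adjusted p = 0.0419 in limma, and from 0.0683 to 0.203 without any 1 array). Tlr4 differed by -0.03 and Ly96, which encodes the MD-2 subunit that binds lipopolysaccharide, by 0.60 (adjusted p = 0.151), with its probe in column 73 and its lowest level, -0.47, on control replicate 1. By number, 4.59% of all genes tested passed higher and 1.26% lower. With testosterone 7 of the 11 were positive, 4 negative and none passed.

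**Figure D3:**
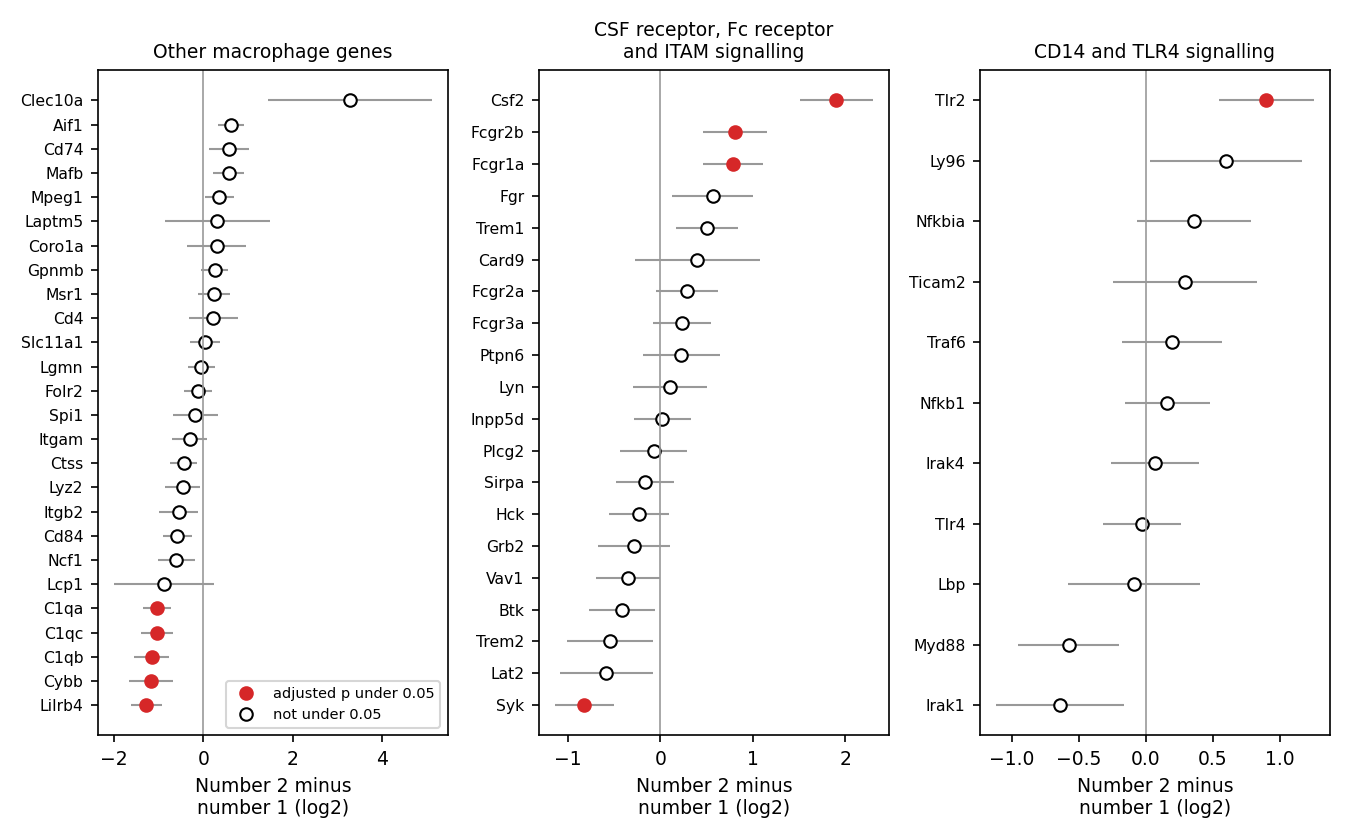
Number 2 minus number 1 differences (log2) of the tested genes of 3 lists, with 95% intervals from limma. Filled red points have an adjusted p under 0.05 and open points do not. One gene of the first list is not drawn. The 5 filled points of the other macrophage genes all lie below 0, and of the 5 in the other panels Syk alone does.

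Markers of other cells also moved with the number, where 4.59% of all genes tested passed higher and 1.26% lower. The markers are given here for genes well above background on all 4 arrays. A gene dim on number 1 would enter the test only by being high on number 2. Of the lymphocyte list of 15 genes, 4 were so detected, all higher on number 2 and 3 of them passing limma's test, with a median of 1.51 (log2), or 1.02 after normexp and quantile normalization. Their summed level was 2.99 and 2.08 on number 2 for testosterone and control, against 0.789 and 1.00 on number 1. Nkg7, a granule protein of cytotoxic lymphocytes, rose by 1.59 (adjusted p = 0.0381). The B-cell markers Cd79b and Ms4a1 were too dim to test.

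Of 3 mast cell and neutrophil genes so detected, Camp, a neutrophil granule peptide, passed limma's test and rose by 1.93 (adjusted p = 0.0139). The linear sums of these 3 genes were 7.46 and 6.93 on number 2 for testosterone and control, against 3.34 and 3.95 on number 1. Their median difference of 0.51 (log2) was 0.07 after normexp and quantile normalization. From a list of 14 germ cell genes 4 were detected on all arrays, 3 of them higher on number 2 and passing, with a median of 3.78, or 2.51 after normexp and quantile normalization. Their linear sum was 5.72 and 5.81 on number 2 for testosterone and control, against 0.339 and 0.595 on number 1. Of these 4 genes, Prm1, Tnp2 and Gapdhs have probes in columns 70, 71 and 79. Endothelial genes had 1 of 3 called higher (Kdr), Leydig cell genes 1 of 5 called lower (Cyp11a1) and Sertoli cell genes 1 of 5 called lower (Cldn11). Signs were mixed, with 2 endothelial genes positive and 1, Vwf at -0.43 (log2), negative. Of the Leydig cell genes 1, Star at 0.605, was positive and 4 were negative. Of the Sertoli cell genes 2 were positive and 3 negative. Without testosterone replicate 2 or control replicate 2, 0 genes of the whole array passed limma's test by number, so these calls were lost there too. The part of these cells in the differences of the macrophage genes was not tested.

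Genes of smooth muscle and myoid cells, the labelled cell type, were read too, and 8 were detected on all arrays. Their differences by number do not check the identity of the cells. Tagln read -2.84 and -2.75 on number 2 for testosterone and control, against -4.63 and -4.47 on number 1. It rose by 1.75 (adjusted p = 0.0144 in limma), or by 0.57 after normexp and quantile normalization (adjusted p = 0.0221). Des, Myl9, Actg2 and Smtn differed by 0.60, 0.16, 0.65 and -0.57 and did not pass. Smtn did after normexp and quantile normalization (-0.52, adjusted p = 0.0349 in limma). The Actg2 probe lies in column 67 and read 0.17 on control replicate 1, the lowest of the 4 arrays. The linear sum of the 7 unsaturated genes, of which Myl9 was the brightest, was 78.4 and 87.8 on number 2 for testosterone and control. On number 1 it was 68.6 and 80.3. Cnn1 was too dim to test, and Acta2 and Myh11, 2 defining genes, had no probe under those names. The fibroblast list, with Col1a1 and Pdgfra, had 1 of 7 higher (Lum). Only 3 of those 7 were unsaturated on all arrays, and saturation can hide a difference.

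**Figure D4:**
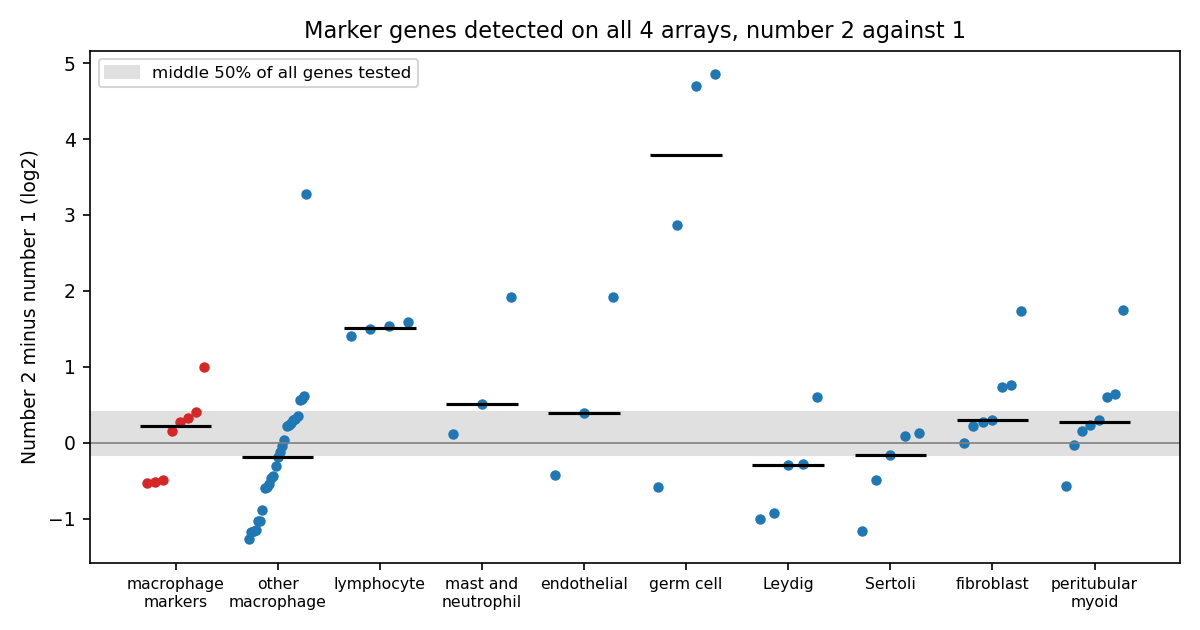
Number 2 minus number 1 differences (log2) of the genes of 10 marker lists that were well above background on all 4 arrays. Each point is 1 gene, the bar is the list's median, and the grey band runs between the quartiles of all genes tested (-0.16 to 0.40). Saturated genes are drawn too, among the fibroblast genes all but 3. The macrophage markers, in red, straddle 0 with a median of 0.22, while the lymphocyte and germ cell genes have medians of 1.51 and 3.78. After normexp and quantile normalization the medians of these 3 lists were 0.09, 1.02 and 2.51. The linear sum of the macrophage markers was lower on both arrays numbered 2 than on both numbered 1.

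The median profile of the 8 genes over the arrays, after each gene's own mean was removed, was 0.06 and -0.12 on testosterone replicates 2 and 1, against 0.12 and -0.04 on control replicates 2 and 1. Of 10174 named genes above background on all arrays, the 5 nearest to it by Euclidean distance over the 4 arrays were Nat1, Eif1ax, Slc2a6, Lmnb2 and Acly, at distances up to 0.0238. That profile spans a narrower range than Adgre1 or Cd68 alone, which moved in opposite directions by number.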

How the data were processed

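Total RNA was amplified from oligo-dT, made into Cy3-labelled cRNA and put on Agilent 4x44k rat arrays, per the labels' protocols. Per the file headers, the deposited files hold processed signal intensity on a linear scale from Feature Extraction 11.5.1.1, with probe positions on rn4; the submitters' processing notes name version 10.5. The authors' deposited table holds log2 values, each column equal to log2 processed signal minus a constant (8.38 to 8.79), with genes not centred and no sign turned. Column medians were -3.34 and -3.61 for testosterone replicates 2 and 1, and -3.45 and -3.62 for control replicates 2 and 1.

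Each array had 43379 non-control spots, 63.5% to 68.2% of them well above background. All arrays shared 1 slide and 1 scan, so neither could be tested as a batch. Log2 signals minus the array's 75th percentile were averaged over spots of a probe, without outlier-flagged spots. Testing required a probe to be well above background on each array of 1 or both groups compared, and the brightest probe stood for a gene. Of the 41012 probes, 10827 were named by accession, 5194 by symbol and 3440 by an older symbol through the reference gene table of GRCr8, 15 by the member names, and the rest kept the file's name.

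Each comparison was fitted by limma 3.58.1 (R 4.3.3; lmFit, then eBayes) without covariates. Its 2-sided p-values were adjusted by Benjamini-Hochberg over all genes and called under 0.05, and the code was tested on simulated data. An exact permutation test of 2 against 2 arrays cannot go below 0.333. Arrays of one number deviated together from their group means (correlation 0.589 over 24489 probes). With 2 pairs and no label on the number, they were not treated as paired. Members and lists were chosen with earlier results of these data known. Some items of the lists are not reported here. Named genes were all members, up to 4 largest differences per list and comparison, a few fixed markers and the 5 nearest profiles. Alternatives changed background correction, scaling, source, filter, probe choice, outlier spots, array columns, replicates and the covariate.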

Additional observations from a re-analysis of the deposited data

Results flagged for a closer look

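Among the 8 macrophage markers, the testosterone minus control difference (log2) had opposite signs in the array pairs numbered 2 and 1 for 5. It was 0.15 for number 2 and -0.08 for number 1 in Adgre1, 0.11 and -0.13 in Cd14, and 0.12 and -0.16 in Csf1r. In Cd163 it was -0.25 for number 2 and 0.03 for number 1, and in Mrc1 -0.21 and 0.07. Each pair is 1 testosterone and 1 control array, and the difference between the pairs was not tested.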

How the results depend on the processing

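The 4 arrays and their spread set the limits: the median 95% half-width was 0.644 (log2) for testosterone minus control and 0.387 for number 2 minus number 1. The count of genes called by number, 1335 (1047 higher, 288 lower), was 2071 (1028 and 1043) after normexp and quantile normalization, which put 49.6% of calls upward in place of 78.4% and moved the median of all genes from 0.10 to -0.01. It was 374 (350 and 24) with treatment as covariate, the same fit as with a replicate block, and 0 with no detection filter, where 7340 had an unadjusted p under 0.05. It ran from 0 to 995 with 1 array left out, 0 without testosterone replicate 2 and without control replicate 2, where 4318 and 6470 had an unadjusted p under 0.05. The cause of these moves was not tested. By treatment, the count was 0 under each other alternative, including the replicate block (which left 618 genes at an unadjusted p under 0.05, where the fit with no block had 175), and from 0 to 34 with 1 array left out.

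The members' median by number, 0.22, was 0.087 after normexp and quantile normalization, 0.044 with probes averaged and 0.302 without columns 57 to 85. The median by treatment was -0.08, also with the replicate block, and ran from -0.15 to 0.01 with 1 array left out. Adgre1 kept its call under 7 of 13 alternatives (adjusted p from 0.0181 to 0.176 over all in limma). It lost it with no filter (0.0974), with the covariate (0.0792) and with any 1 array left out. Of 104 member values by number, 95 kept direction and side, and Tyrobp alone turned, to 0.34 without columns 57 to 85, where its other probe stands in.

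By treatment 18 of 104 turned sign, none called. Normexp gave 0.022 for Mrc1 and 0.046 for Csf1r, and Tyrobp gave 0.006 with probes averaged and 0.22 without the columns. With 1 array left out the ranges were -0.519 to 0.592 for Adgre1, -0.147 to 0.127 for Cd14, -0.381 to 0.166 for Cd163, -0.390 to 0.195 for Cd68, -0.321 to 0.048 for Csf1, -0.341 to 0.296 for Csf1r, -0.279 to 0.140 for Mrc1 and -0.528 to 0.103 for Tyrobp. Array numbers are unbalanced in such fits.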
